A study of Mus musculus with 6 samples.

Results

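Clearance of apoptotic cells by tumor-associated macrophages (TAMs) depends on receptors that bind phosphatidylserine on the dying cell, directly or through bridging proteins, and on adaptors that drive engulfment. Expression of 10 such genes was examined: the receptor tyrosine kinases Mertk, Axl and Tyro3, their ligands Gas6 and Pros1, the bridging protein Mfge8 and the integrin subunit Itgb3, the scavenger receptor Lrp1, and the engulfment adaptors Elmo1 and Dock1. The genes were chosen by symbol for their roles in the pathway, with earlier results of these data known. All 10 were found among the 55421 genes of the count table, and all 10 passed the filter on low counts that left 14469 genes to test.

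TAMs were sorted as live CD45+CD11b+F4/80+Ly6G- cells, 15 days after mice aged 8 to 12 weeks received MC17-51 fibrosarcoma cells (M17 in the labels). The groups were 3 libraries from Pdcd1f/f mice, which carry the floxed Pdcd1 gene (encoding PD-1) without Cre, and 3 libraries from Pdcd1f/fLysMcre mice. In the latter the lysozyme (LysM) promoter drives Cre, so that the floxed gene is targeted in myeloid cells at large and not in TAMs alone. The labels name no other treatment for either group. No source used here says whether each library came from a separate mouse, so the p-values measure the spread between these libraries, part of which may be technical.

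MERTK, AXL and TYRO3 do not contact phosphatidylserine themselves. GAS6 and protein S (PROS1) are vitamin K-dependent proteins whose carboxylated end binds phosphatidylserine while their other end engages the receptor. GAS6 can engage each of the 3 receptors and protein S engages MERTK and TYRO3. MFG-E8 bridges phosphatidylserine to the αv integrins, of which ITGB3 is a β subunit. LRP1 takes up cells marked by calreticulin, and ELMO1 with DOCK1 activates the GTPase RAC1 that reshapes the membrane around the target. Macrophages of many tissues use MERTK for the quiet clearance of dying cells.

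Promoters of the 3 genes that fell between the genotypes, Mertk, Gas6 and Pros1, are shown because these were the members that passed the test as lower. Each sequence runs from 250 bases before to 50 bases after the start of the gene in RefSeq (GRCm38.p6), and capitals mark the GC box CCGCCC on either strand (its reverse complement is GGGCGG).
Mertk promoter (chr2:128698665-128698964, + strand): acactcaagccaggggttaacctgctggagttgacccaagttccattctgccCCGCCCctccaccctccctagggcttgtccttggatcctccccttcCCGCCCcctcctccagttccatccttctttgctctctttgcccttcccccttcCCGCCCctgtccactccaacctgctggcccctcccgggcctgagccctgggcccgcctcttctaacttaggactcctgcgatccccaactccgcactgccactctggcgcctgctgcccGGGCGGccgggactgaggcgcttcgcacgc
Gas6 promoter (chr8:13494486-13494785, - strand): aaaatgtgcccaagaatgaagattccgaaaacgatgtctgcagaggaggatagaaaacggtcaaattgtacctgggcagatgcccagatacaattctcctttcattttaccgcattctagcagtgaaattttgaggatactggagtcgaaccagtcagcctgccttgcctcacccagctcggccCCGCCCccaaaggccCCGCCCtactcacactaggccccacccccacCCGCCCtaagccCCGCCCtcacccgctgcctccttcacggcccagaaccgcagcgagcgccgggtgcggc
Pros1 promoter (chr16:62854057-62854356, + strand): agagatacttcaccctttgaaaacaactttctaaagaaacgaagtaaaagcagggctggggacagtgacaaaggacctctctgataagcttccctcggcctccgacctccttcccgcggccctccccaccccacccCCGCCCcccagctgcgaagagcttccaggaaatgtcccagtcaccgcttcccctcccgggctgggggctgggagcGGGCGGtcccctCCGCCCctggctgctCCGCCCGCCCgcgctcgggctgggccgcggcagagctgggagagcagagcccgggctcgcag

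The GC box occurred 4 times in the Mertk promoter, 4 times in that of Gas6 and 5 times in that of Pros1, with overlapping matches counted separately. RefSeq promoters were matched for 9 of the 10 genes, all but Itgb3. All 9 held a GC box (Elmo1 at 1 of its 2 starts), against 35.7% of 32851 mouse promoters of the same length, and all 9 were above the median GC content of those promoters, 52.7%, again with the exception of the second start of Elmo1. The GC box was chosen as a motif after these sequences had been read. The nuclear receptor half-site AGGTCA, present in 16.3% of all promoters, was not found in the 9 on either strand. The PU.1 core GAGGAAG, present in 13.6% of all promoters, was found in those of Axl and Elmo1. The promoters of Mertk, Gas6 and Pros1 thus shared GC boxes with the 6 matched genes that did not pass the test, and a match is a description of letters in this window.

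Total counts ranged from 41833823 to 51417209 per library, so that 3 counts corresponded to between 0.0583 and 0.0717 CPM, a floor that covers counting error only. Pdcd1 itself had 10, 12 and 15 counts in Pdcd1f/f replicates 1 to 3 and 7, 16 and 11 in Pdcd1f/fLysMcre replicates, which overlapped, so it could not check the labels at this level. Lyz2, the lysozyme gene into which Cre is inserted, fell from 216864 ± 8638 to 427 ± 33.4 normalized counts (SD, n = 3 libraries each), which separated the genotypes without overlap. The Pdcd1f/f mice carry no Cre, so the presence of Cre and the loss of Lyz2 transcripts cannot be told apart from the targeting of Pdcd1. Pdcd1f/f replicate 1 and Pdcd1f/fLysMcre replicate 2 stood apart, since their deviation from the group mean correlated with the GC content of genes at Spearman's rho of −0.58 and −0.49, whereas the other 4 libraries had values from 0.12 to 0.51 (across 14454 genes, a description). The log2 fold changes of the 10 genes are therefore also given without those 2 libraries. Y-linked transcripts summed to 1545 to 1914 normalized counts in Pdcd1f/f libraries and 6267 to 7233 in Pdcd1f/fLysMcre libraries. Xist ranged from 17318 to 26511 and from 8530 to 13137, so every library held both kinds of transcript. The study's methods state that males and females were used in equal numbers, but no label gives the sex of the mice behind a library. The sex of the mice and the genotype therefore cannot be told apart.

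Pdcd1f/fLysMcre TAMs had lower expression of the receptor Mertk and of both ligands, Gas6 and Pros1, and higher expression of the integrin subunit Itgb3. With a false discovery rate of 0.05 over all genes tested (edgeR), 4 of the 10 genes passed, 3 lower and 1 higher. Among all genes tested 5.43% passed, 3.01% lower and 2.42% higher, shares that stand beside a list chosen with earlier results known and are no test of it. The libraries of the genotypes did not overlap for 8 of the 10 genes, 7 of them lower in Pdcd1f/fLysMcre, against 27.2% of all genes tested. The median log2 fold change of the 10 genes was −0.22, and that of all genes tested was −0.0026. The libraries hold RNA from many cells, so fewer cells expressing a gene and less of its RNA per cell cannot be told apart.

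**Figure D1:**
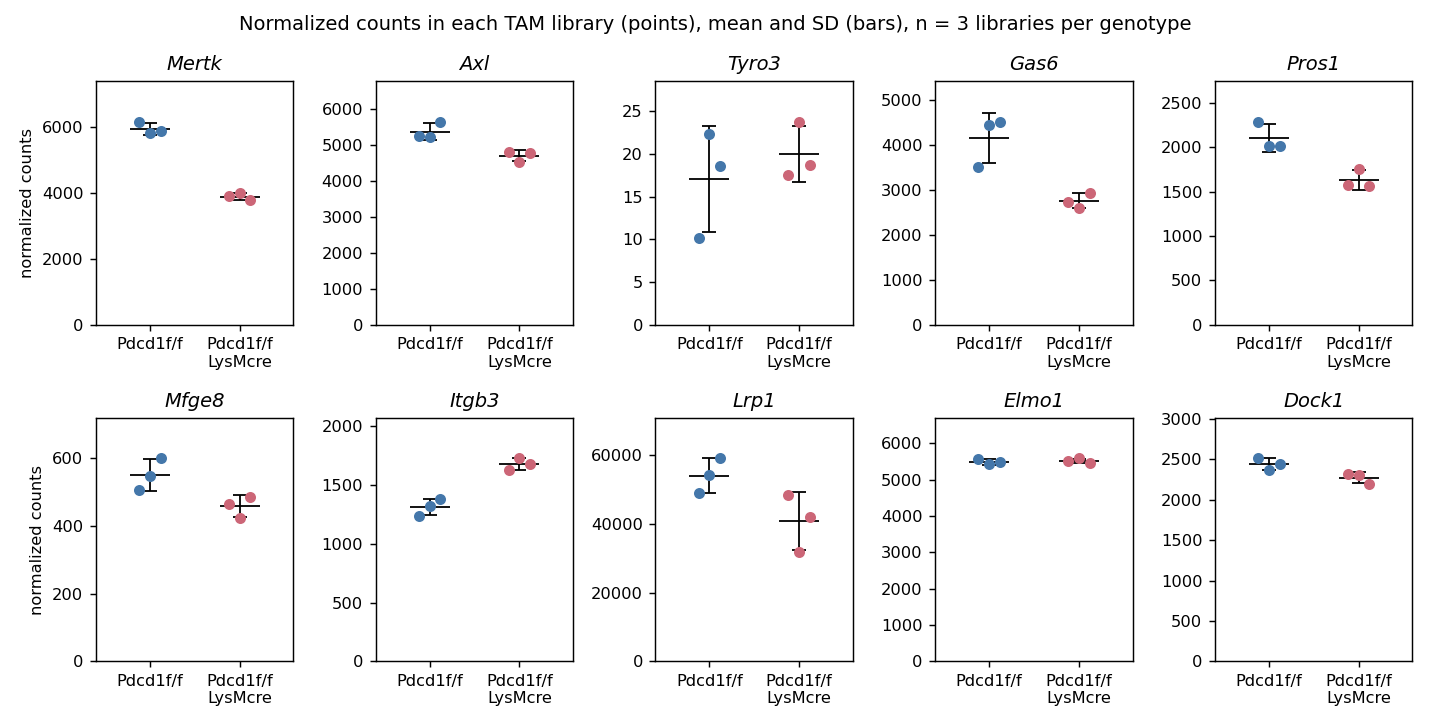
Normalized counts (y axis, from 0, scale differing by panel) of the 10 genes in each library (points), with the mean and SD of the 3 libraries of each genotype (lines and bars). The 3 Pdcd1f/fLysMcre libraries lie below all 3 Pdcd1f/f libraries for Mertk, Axl, Gas6, Pros1, Mfge8, Lrp1 and Dock1 and above them for Itgb3, and overlap them for Tyro3 and Elmo1.

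Among the receptors, Mertk (ENSMUSG00000014361, chr2:128698956-128802894, GRCm38, + strand) differed most. Normalized counts of Mertk were 6163, 5817 and 5870 in Pdcd1f/f libraries and 3892, 3991 and 3786 in Pdcd1f/fLysMcre libraries. The lowest Pdcd1f/f library thus stood well above the highest Pdcd1f/fLysMcre library, and the libraries of a genotype lay close together. Mertk fell by 34.6% in the mean, with a log2 fold change of −0.61 (SE 0.06, 95% interval −0.74 to −0.48, adjusted p = 0.00036), and ranked 38 of 14469 genes by p-value. It passed the threshold in all 16 alternative fits, including each fit that left out 1 library, where the log2 fold change ranged from −0.63 to −0.59. Without the 2 libraries that stood apart it was −0.61. Mertk was also the member that passed a test for a fold change above 1.2.

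Axl (ENSMUSG00000002602, chr7:25757273-25788705, − strand) encodes the receptor that binds GAS6 with high affinity. Its normalized counts were 5242, 5206 and 5637 in Pdcd1f/f libraries and 4792, 4529 and 4770 in Pdcd1f/fLysMcre libraries. Every Pdcd1f/fLysMcre library was below every Pdcd1f/f library, but the gap was narrow. The log2 fold change of −0.19 (SE 0.06, 95% interval −0.33 to −0.05) did not pass the test (edgeR adjusted p = 0.101). Axl passed in 1 of 16 alternatives, the fit without Pdcd1f/f replicate 1 (log2 fold change −0.21), and also without both libraries that stood apart (−0.18, adjusted p = 0.0162, against a range of 0.0344 to 1 over the 16 alternatives). With offsets for GC content and length the log2 fold change was −0.11 (adjusted p = 0.118).

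Tyro3 (ENSMUSG00000027298, chr2:119797733-119818104, + strand), the third receptor of the family, was close to the limit of detection. Its normalized counts were 10.2, 22.3 and 18.6 in Pdcd1f/f libraries and 17.6, 23.8 and 18.7 in Pdcd1f/fLysMcre libraries, from 11 to 25 raw counts per library. The genotypes overlapped, and a difference in either direction was not detectable at this depth (log2 fold change 0.25, 95% interval −0.59 to 1.09, edgeR adjusted p = 0.721). Its direction rested on Pdcd1f/f replicate 1, without which the log2 fold change was −0.04.

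The balance between the receptors was compared within libraries. The ratio of Mertk to Axl counts was 1.18, 1.12 and 1.04 in Pdcd1f/f libraries and 0.812, 0.881 and 0.794 in Pdcd1f/fLysMcre libraries, so that Mertk counts exceeded Axl counts in each Pdcd1f/f library and fell short of them in each Pdcd1f/fLysMcre library. The difference on the log2 scale was −0.42 (p = 0.1, two-sided exact permutation test over 6 libraries, adjusted p = 0.15 over 6 ratios), where 0.1 is the smallest p that 3 libraries against 3 allow. A ratio within a library does not depend on scaling between libraries, but the number of reads per gene also reflects its length, so the values 1.18 and 0.812 are not ratios of molecules. The ratio of Mertk to Tyro3 was lower by 0.91 on the log2 scale, also without overlap (two-sided exact permutation p = 0.1, adjusted p = 0.15). It was lower by 0.55 without Pdcd1f/f replicate 1 and by 0.44 without both libraries that stood apart. Because Tyro3 was close to the limit of detection, the size of this difference is uncertain.

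Among the ligands, Gas6 (ENSMUSG00000031451, chr8:13465374-13494490, − strand) fell nearly as far as Mertk. Normalized counts of Gas6 were 3513, 4450 and 4524 in Pdcd1f/f libraries and 2744, 2604 and 2933 in Pdcd1f/fLysMcre libraries. The genotypes did not overlap, although Pdcd1f/f replicate 1 was well below the other two control libraries. The mean was 33.7% lower (log2 fold change −0.59, SE 0.10, 95% interval −0.81 to −0.37, edgeR adjusted p = 0.00758). Gas6 passed in 13 of 16 alternatives and did not pass without Pdcd1f/f replicate 2 (log2 fold change −0.54) or without Pdcd1f/fLysMcre replicate 1 (−0.59), nor as a fold change above 1.2. Offsets for GC content and gene length gave −0.45 and the fit without the 2 libraries that stood apart gave −0.66, both past the threshold. Gas6 shares 34 exonic bases with Tmem255b on the opposite strand, and whether reads were counted by strand was not stated.

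Pros1 (ENSMUSG00000022912, chr16:62854307-62929346, + strand), encoding the anticoagulant cofactor protein S, had 2288, 2010 and 2016 normalized counts in Pdcd1f/f libraries and 1573, 1756 and 1560 in Pdcd1f/fLysMcre libraries. Again no library of a genotype reached the range of the other. Pros1 fell by 22.6% in the mean (log2 fold change −0.37, SE 0.08, 95% interval −0.55 to −0.19, edgeR adjusted p = 0.0279). It passed in 11 of 16 alternatives. The call was lost when Pdcd1f/f replicate 2 (−0.40), Pdcd1f/f replicate 3 (−0.40), Pdcd1f/fLysMcre replicate 1 (−0.34) or Pdcd1f/fLysMcre replicate 3 (−0.34) was left out, with little change in the estimate, whereas offsets for GC content and length gave −0.47 and the fit without the 2 libraries that stood apart gave −0.36, both past the threshold.

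The receptor and its ligands were also compared with each other within libraries. The ratio of Mertk to Gas6 differed by −0.03 on the log2 scale between the genotypes (p = 0.8, two-sided exact permutation test, 6 libraries, adjusted p = 0.8), and its libraries overlapped. The ratio of Gas6 to Pros1 was 1.54, 2.21 and 2.24 in Pdcd1f/f libraries and 1.74, 1.48 and 1.88 in Pdcd1f/fLysMcre libraries, which overlapped as well (−0.22, exact p = 0.3, adjusted p = 0.36). With 1 library left out this difference ranged from −0.40, without Pdcd1f/f replicate 1, to −0.12, without Pdcd1f/f replicate 3 or Pdcd1f/fLysMcre replicate 2, and was −0.13 without Pdcd1f/f replicate 2. These ratios with 6 libraries do not show that the genes changed equally. The ratios were taken without offsets for GC content and length. With those offsets the log2 fold changes were −0.65 for Mertk, −0.45 for Gas6 and −0.47 for Pros1.

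**Figure D2:**
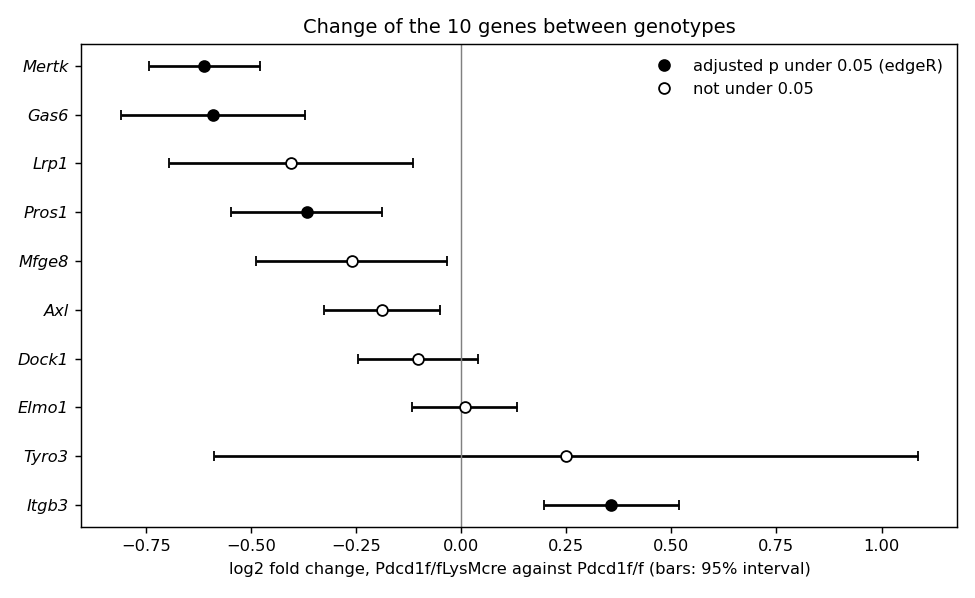
Log2 fold change of each of the 10 genes, Pdcd1f/fLysMcre against Pdcd1f/f (x axis), with its 95% interval (bars) from edgeR over 6 libraries. Filled points mark an adjusted p under 0.05, and they are Mertk at −0.61, Gas6 at −0.59, Pros1 at −0.37 and Itgb3 at 0.36, while the interval of Tyro3 is the widest.

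The bridging protein and its integrin were examined next. Mfge8 (ENSMUSG00000030605, chr7:79133768-79149060, − strand) had 504, 547 and 599 normalized counts in Pdcd1f/f libraries and 465, 424 and 486 in Pdcd1f/fLysMcre libraries, with no overlap but a small gap. Its log2 fold change was −0.26 (SE 0.10, 95% interval −0.49 to −0.03) and did not pass the test (edgeR adjusted p = 0.154). Mfge8 passed without Pdcd1f/f replicate 1 (−0.33) and without both libraries that stood apart (−0.27), with adjusted p-values over the 16 alternatives from 0.0415 to 1. With offsets for GC content and length it was −0.14 and did not pass.

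Itgb3 (ENSMUSG00000020689, chr11:104608000-104670476, + strand) was the member that rose. Normalized counts were 1237, 1321 and 1380 in Pdcd1f/f libraries and 1628, 1727 and 1680 in Pdcd1f/fLysMcre libraries, and each Pdcd1f/fLysMcre library was above each Pdcd1f/f library. The mean was 27.9% higher (log2 fold change 0.36, SE 0.07, 95% interval 0.20 to 0.52, edgeR adjusted p = 0.0192). It passed in 11 of 16 alternatives and did not pass without Pdcd1f/f replicate 2 (0.36) or without Pdcd1f/fLysMcre replicate 1 (0.38), 2 (0.34) or 3 (0.35). Without both libraries that stood apart the log2 fold change was 0.29, past the threshold.

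Itgav, the αv subunit that pairs with ITGB3, rose as well, from 16449 ± 1007 in Pdcd1f/f to 20742 ± 1128 normalized counts in Pdcd1f/fLysMcre TAMs (SD, n = 3), a log2 fold change of 0.34 (edgeR adjusted p = 0.0192). Itgb5, the other β subunit of the receptor for MFG-E8, had 9010.2 ± 1150.1 and 7020 ± 373 normalized counts, a log2 fold change of −0.36 that did not pass (adjusted p = 0.0513), and −0.21 with GC and length offsets, where it passed. The ratio of Mfge8 to Itgb3 was 0.408, 0.415 and 0.434 in Pdcd1f/f libraries and 0.286, 0.245 and 0.289 in Pdcd1f/fLysMcre libraries, without overlap (−0.62 on the log2 scale, two-sided exact permutation p = 0.1, the smallest possible, adjusted p = 0.15 over 6 ratios).

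Lrp1 (ENSMUSG00000040249, chr10:127538161-127621148, − strand) had the highest counts of the 10 genes and the largest spread in number of counts. Normalized counts were 48881, 54081 and 58959 in Pdcd1f/f libraries and 48392, 31858 and 41908 in Pdcd1f/fLysMcre libraries. The genotypes were separated by less than the distance between any 2 libraries of the same genotype, since Pdcd1f/fLysMcre replicate 1 nearly reached Pdcd1f/f replicate 1. The log2 fold change was −0.40 (SE 0.13, 95% interval −0.69 to −0.11, edgeR adjusted p = 0.0956) and did not pass. It passed in 6 of 16 alternatives. These were DESeq2, offsets for GC content and length (−0.28), the replicate number as a block, offsets and block together (−0.28), no filter on low counts, and the fit without Pdcd1f/f replicate 1 (−0.48). Lrp1 also passed without both libraries that stood apart (−0.33). Without Pdcd1f/fLysMcre replicate 2 the log2 fold change was −0.26 and did not pass (adjusted p = 0.214, with a range over the 16 alternatives from 1.91e-07 to 0.715). Lrp1 lies 10.3 Mb from Lyz2 on chromosome 10, and the part of the Cre-carrying segment in its values was not tested. Lrpap1, the chaperone of LRP1, had 5303 ± 537 and 4447 ± 245 normalized counts (log2 fold change −0.25, adjusted p = 0.101).

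The engulfment adaptors had the log2 fold changes smallest in size among the listed genes in the edgeR fit without offsets. Elmo1 (ENSMUSG00000041112, chr13:20090596-20608353, + strand) had 5576, 5421 and 5484 normalized counts in Pdcd1f/f libraries and 5503, 5586 and 5458 in Pdcd1f/fLysMcre libraries, which overlapped throughout. Its log2 fold change was 0.01, with a 95% interval from −0.12 to 0.13 that leaves out a change of the size seen for Mertk (edgeR adjusted p = 0.946). Elmo1 shares 403 exonic bases with the antisense transcript Gm32036.

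Dock1 (ENSMUSG00000058325, chr7:134670654-135173639, + strand), the exchange factor that ELMO1 binds, had 2511, 2369 and 2445 normalized counts in Pdcd1f/f libraries and 2319, 2302 and 2194 in Pdcd1f/fLysMcre libraries. The genotypes did not overlap, but the log2 fold change of −0.10 (95% interval −0.24 to 0.04) did not pass (edgeR adjusted p = 0.358), and neither adaptor passed in any of 16 alternatives, nor without both libraries that stood apart (0.0043 for Elmo1 and −0.10 for Dock1). The ratio of Elmo1 to Dock1 was 2.22, 2.29 and 2.24 in Pdcd1f/f libraries and 2.37, 2.43 and 2.49 in Pdcd1f/fLysMcre libraries (0.11 on the log2 scale, two-sided exact permutation p = 0.1, adjusted p = 0.15).

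**Figure D3:**
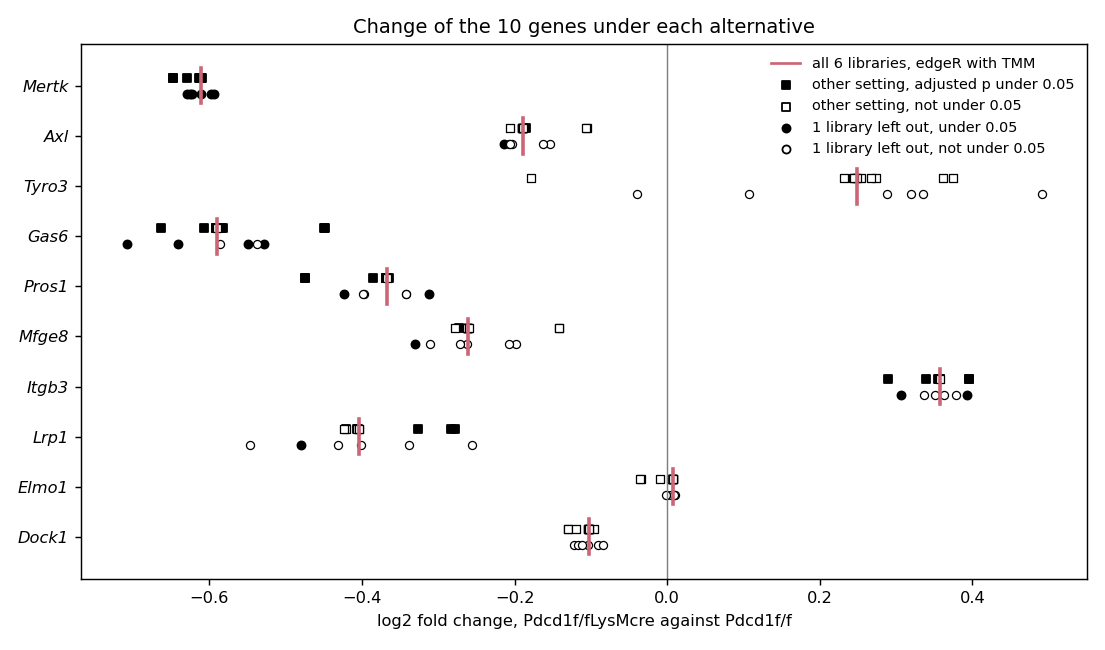
Log2 fold change (x axis) of the 10 genes with all 6 libraries (red line), under 10 other settings (squares) and with 1 library left out (circles), plus the fit without both libraries that stood apart (square). Filled symbols mark an adjusted p under 0.05, and Mertk is the gene for which every symbol is filled.

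Other components of the engulfment machinery were then examined. Of 20 engulfment signalling genes tested, Pik3r1, a regulatory subunit of PI3K, rose (log2 fold change 0.34, edgeR adjusted p = 0.0207) and 19 did not pass, a share of 1 in 20 that is near the 5.43% of all genes. With offsets for GC content and length 5 passed, 4 higher and 1 lower, where 17.9% of all genes passed. The paralogs Elmo2 (−0.24, adjusted p = 0.132), Elmo3 (0.01), Dock2 (−0.05) and Dock5 (0.28, adjusted p = 0.0644) were among those 19. So were the GTPases Rac1 (0.10), Rac2 (0.04) and Rhog (−0.18) and the adaptor Crk (0.13).

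Among other phosphatidylserine receptors and their partners, 6 of 15 tested genes passed, 3 in each direction, against 5.43% of all genes tested. Cd36, a scavenger receptor for oxidized lipids and apoptotic cells, rose from 679 ± 15.6 to 1300.1 ± 155 normalized counts (log2 fold change 0.94, edgeR adjusted p = 4.91e-04). Cd300lb, an activating receptor of the CD300 family, and Itgav rose by less, at 0.35 and 0.34. Stab1, encoding stabilin-1, fell from 61837 ± 8273 to 37674 ± 4549 normalized counts (−0.71, adjusted p = 0.00496). Scarf1, which recognizes C1q on apoptotic cells, fell by 0.71 on the log2 scale, and Cd300lf, a CD300 family member with inhibitory motifs, fell by 0.42. The median log2 fold change of the list was −0.02.

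The bridging and opsonising proteins beyond the 10 genes moved in both directions, depending on the setting. The 3 chains of C1q, the complement component that coats apoptotic cells, all fell, C1qa by 0.61, C1qb by 0.55 and C1qc by 0.60 on the log2 scale (edgeR adjusted p = 0.0163, 0.0135 and 0.00859). C1qa had 42744, 54858 and 59901 normalized counts in Pdcd1f/f libraries and 34942, 30418 and 37713 in Pdcd1f/fLysMcre libraries, which did not overlap. They were 3 of 10 tested genes, against 5.43% of all genes tested. The other 7 did not pass, among them Lgals3, a ligand of MERTK, at 0.15 (adjusted p = 0.143), and the median of the list was 0.04. With offsets for GC content and length 4 more genes passed, all higher, namely Lgals3 (0.25), Thbs1 (0.20), Anxa1 (0.19) and Fn1 (0.28), where 17.9% of all genes passed.

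**Figure D4:**
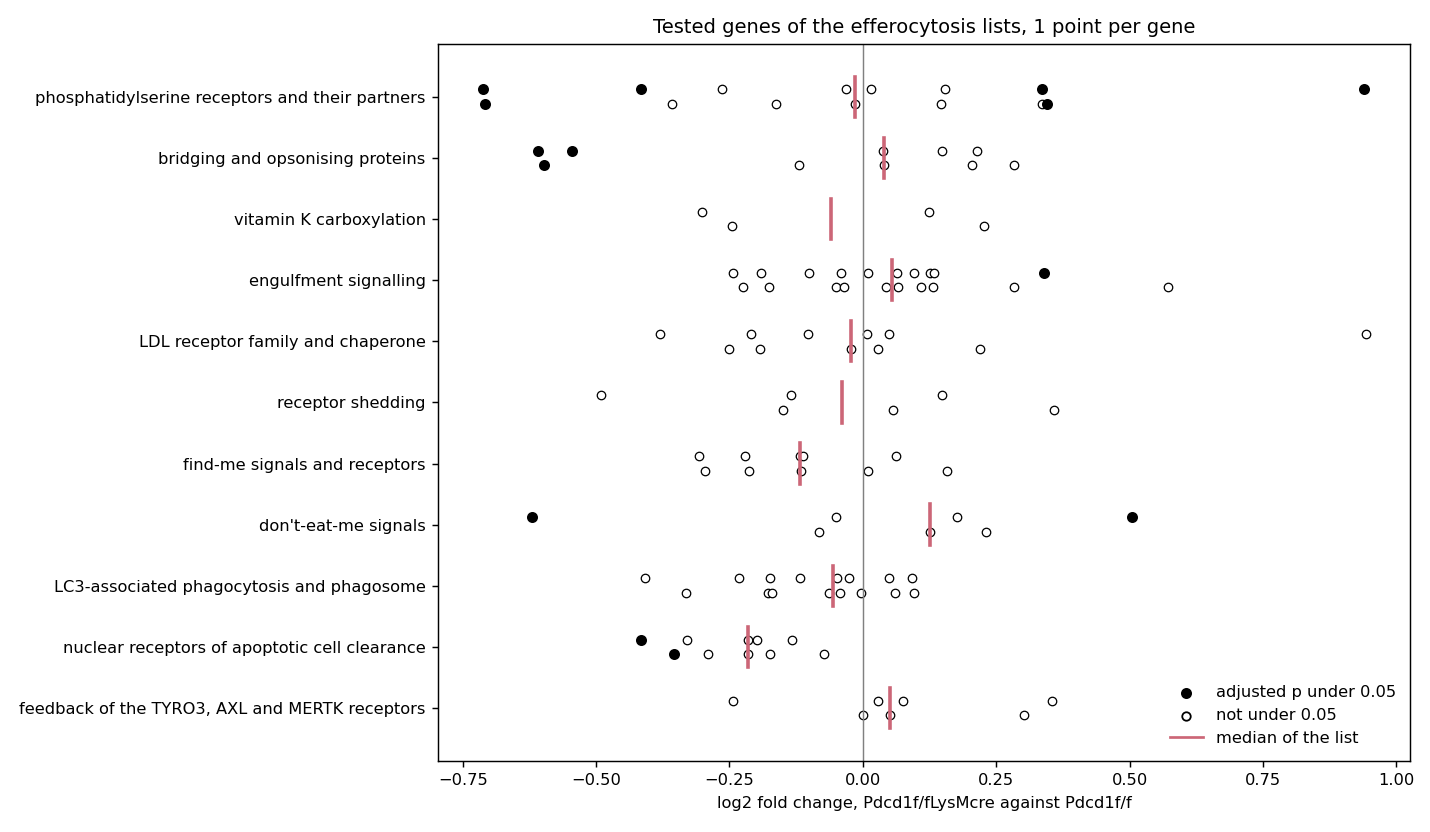
Log2 fold change, Pdcd1f/fLysMcre against Pdcd1f/f (x axis), of each tested gene (points) in 11 lists of efferocytosis genes, with the list's median (red line). Filled points are the 14 of 116 genes with an adjusted p under 0.05, with Cd36 at 0.94 farthest to the higher side and Stab1 and Scarf1 at −0.71 farthest to the lower side.

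Genes that oppose engulfment or respond to it were also examined. Of 7 "don't eat me" genes tested, Cd24a, encoding the ligand of the inhibitory receptor Siglec-G, rose (0.51, edgeR adjusted p = 0.0287) and Pecam1 fell (−0.62, adjusted p = 0.0034), 2 genes beside the 5.43% of all genes tested that passed. Cd47 (0.13) and its receptor Sirpa (−0.05) did not pass. Of 10 nuclear receptors and linked genes of apoptotic cell clearance, Rxra, the partner of the LXR and PPAR receptors, was 1 of 2 that fell (−0.42, edgeR adjusted p = 0.0313). The other 8 did not pass, where 5.43% of all genes tested did, and the median of the list was −0.22.

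No gene passed in the remaining 6 lists in the edgeR fit without offsets. At an unadjusted p under 0.05, which 24.2% of all genes tested had, these counts were 3 of 4 vitamin K carboxylation genes, 4 of 11 LDL receptor family genes, 2 of 6 genes of receptor shedding, 4 of 10 find-me signals and receptors, 5 of 16 genes of LC3-associated phagocytosis and 1 of 7 feedback genes. DESeq2 called 0, 1, 1, 1, 1 and 0 of them in the same order, against 10.5% of all genes tested (genes to which it gave no adjusted p are counted as not called). With offsets for GC content and length, where 17.9% of all genes tested passed, edgeR called 2 of 11 LDL receptor family genes, 2 of 6 genes of receptor shedding and 6 of 16 of LC3-associated phagocytosis, all lower, and of 10 find-me genes 1 higher and 3 lower, but none of the vitamin K or feedback genes. Ggcx, the carboxylase that GAS6 and protein S require, had a log2 fold change of −0.25 (adjusted p = 0.197). The sheddases Adam10 and Adam17, the latter of which cleaves MERTK from the cell surface, had values of 0.15 and 0.06 and did not pass.

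Over the 11 lists together, 14 of 116 tested genes passed (12.1%), 5 higher and 9 lower, against 5.43% of all genes tested, and 45 (38.8%) did not overlap between the genotypes, against 27.2%. The median log2 fold change of the 116 genes was −0.04. These lists were written with earlier results known, so the shares describe the lists. When each library was left out in turn, Cd36, Stab1 and Pecam1 passed in all 6 fits, Cd300lf, Scarf1 and C1qc in 4, C1qa and C1qb in 3, Itgav, Cd300lb, Pik3r1 and Rxra in 2, and Cd24a in 1.

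The level of each gene per kilobase of merged exons was then compared within a genotype. Merged exons are those of all annotated transcripts, so the order depends on the annotation as well as on expression. Which transcripts the TAMs used was not examined. Elmo1, with 12.58 kb of merged exons, had a mean of 5494 normalized counts in Pdcd1f/f libraries, against 2105 for Pros1 with 4.088 kb. In Pdcd1f/f TAMs, Lrp1 was the highest at 3046 ± 284 normalized counts per kilobase (SD, n = 3), followed by Gas6 at 1634 ± 221, Mertk at 1372 ± 43.0 and Axl at 1065 ± 47.5. Gas6 and Mertk overlapped, and every other pair of neighbours in the order was separated in all libraries. Pros1 at 515 ± 38.8 came next, above Elmo1 at 437 ± 6.20, Dock1 at 262 ± 7.65, Itgb3 at 222 ± 12.2 and Mfge8 at 117 ± 10.1. Tyro3 was far below all of them, with a mean of 2.75 and libraries from 1.65 to 3.61.

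In Pdcd1f/fLysMcre TAMs the order by this measure differed at 3 places. Lrp1 at 2298 ± 470 and Gas6 at 1083 ± 64.8 stayed on top, but Axl at 933 ± 29.0 and Mertk at 897 ± 23.6 now overlapped. Elmo1 at 438 ± 5.15 stood above Pros1 at 399 ± 26.8, and Itgb3 at 284 ± 8.33 stood above Dock1 at 243 ± 7.28, each in all 3 libraries. Mfge8 at 97.6 ± 6.72 and Tyro3 at 3.23 ± 0.536 kept the last places.

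**Figure D5:**
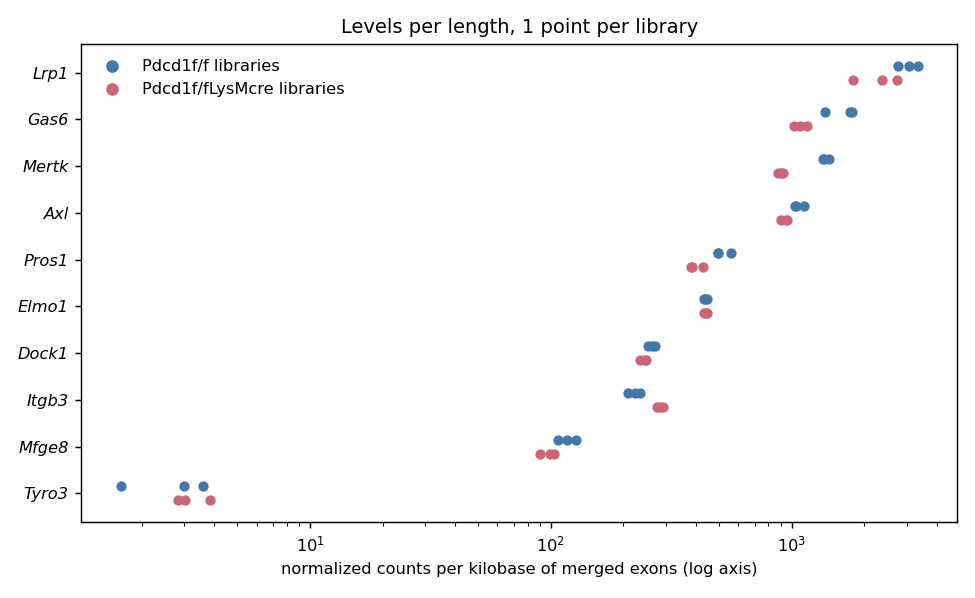
Normalized counts per kilobase of merged exons (x axis, log scale) of the 10 genes in each Pdcd1f/f library (blue) and Pdcd1f/fLysMcre library (red). Lrp1 leads in both genotypes, the red points of Mertk reach those of Axl whereas the blue points do not, and Tyro3 lies at 2.75 and 3.23 in the mean.

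The 10 genes were also set relative to macrophage markers. Of 6 such markers tested, Adgre1 (encoding F4/80) and Csf1r fell, with log2 fold changes of −0.38 and −0.32, against 5.43% of all genes tested, and the other 4 did not pass, although DESeq2 and edgeR with the offsets also called Fcgr1 lower. The mean log2 level of Adgre1, Itgam, Csf1r, Cd68 and Fcgr1 was 0.23 lower in Pdcd1f/fLysMcre libraries (14.73 against 14.96). The sixth marker, Ptprc, which encodes CD45 of all leukocytes and had a log2 fold change of 0.11, was not part of that mean, and the median log2 fold change of the 6 was −0.19. Relative to the mean of the 5 markers, Mertk was lower by 0.38 and Gas6 by 0.36 on the log2 scale, and Itgb3 was higher by 0.59 and Elmo1 by 0.24, in each case without overlap of the libraries (two-sided exact permutation p = 0.1, the smallest possible, adjusted p = 0.25 over 10 genes). Pros1 at −0.14, Lrp1 at −0.19, Axl at 0.04, Mfge8 at −0.03, Dock1 at 0.13 and Tyro3 at 0.52 overlapped. Several of these moved when 1 library was left out. Without Pdcd1f/f replicate 1 Pros1 was at −0.05, Tyro3 at 0.21 and Mfge8 at −0.07. Lrp1 was at −0.33 without Pdcd1f/fLysMcre replicate 1 and −0.02 without replicate 2. Axl ranged from 0.02, without Pdcd1f/f replicate 2, to 0.07, without Pdcd1f/fLysMcre replicate 2, and was at most 0.03 without Pdcd1f/fLysMcre replicate 1 or 3. Mfge8 ranged from −0.08, without Pdcd1f/fLysMcre replicate 3, to 0.02, without Pdcd1f/fLysMcre replicate 2, and was at 0.01 without Pdcd1f/f replicate 3. Without both libraries that stood apart, Mertk was lower by 0.35 and Gas6 by 0.41, Itgb3 was higher by 0.55 and Elmo1 by 0.26, and Tyro3 was at 0.08, Axl at 0.07, Lrp1 at −0.07 and Mfge8 at −0.01. With Ptprc added to the mean, an alternative chosen after seeing the data, Axl turned to −0.02 and Pros1, at −0.19, no longer overlapped, while Mertk (−0.44), Gas6 (−0.41), Itgb3 (0.53) and Elmo1 (0.18) still did not overlap. Mfge8 was then at −0.09 and Dock1 at 0.07. The reference markers fell themselves in part, so these are differences from the markers and not levels per cell.

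Markers of other cells were summed in each library, and their part in the results was not tested. Calls are from edgeR unless DESeq2 or the offsets for GC content and length are named, and 5.43% of all genes tested passed with edgeR, 10.5% with DESeq2 and 17.9% with the offsets. Fibroblast and fibrosarcoma markers summed to 3080 to 3338 normalized counts in Pdcd1f/f libraries and 2939 to 3237 in Pdcd1f/fLysMcre libraries, with 1 of 6 tested markers (Col1a2) lower. Endothelial markers summed to 1869 to 1988 and 1519 to 1647, with Pecam1, also counted above among the "don't eat me" genes, the 1 of 3 that fell and Tek at 0 to 4 counts. Neutrophil markers summed to 4120 to 4401 and 3712 to 3850, with Csf3r the 1 of 3 tested that fell (−0.51 on the log2 scale) and Ly6g at 0 to 3 counts. S100a8 (0.23) and S100a9 (0.12) had values on the other side of 0 and did not pass, and with the offsets S100a8 was called higher. Dendritic cell markers summed to 104 to 142 and 197 to 198. None of 3 tested passed with edgeR or DESeq2, 2 of them had an unadjusted p under 0.05, and Xcr1 and Clec9a had at most 6 counts in a library. T cell markers summed to 65.7 to 77.9 and 71.8 to 81.4, with none of 2 past the threshold, unadjusted or with DESeq2, and B cell markers to 169 to 209 and 120 to 149, of which the 1 tested (Cd79b, −0.52) did not pass with DESeq2 or with edgeR without offsets, had an unadjusted p under 0.05, and was called lower with the offsets. Platelet markers summed to 40096 to 41673 and 39527 to 42164, with Ppbp higher (0.83, 1 of 3) and Gp9 and Gp1bb at 0 or 1 count. Pf4 (−0.14) and Itga2b (−0.42) did not pass, and Pf4 was called lower with the offsets. Osteoclast markers summed to 179248 to 184496 and 164106 to 173882, with Dcstamp higher (1 of 5). ITGB3 and DC-STAMP are both used by osteoclasts, and Dcstamp had a log2 fold change of 0.45. DESeq2 called Ctsk lower as well (edgeR log2 fold change −0.17), and with the offsets edgeR called Dcstamp and Ocstamp higher and Ctsk lower.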

How the data were processed

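RNA-seq data of sorted TAMs were grouped by the genotype in the labels (Pdcd1f/f or Pdcd1f/fLysMcre, 3 libraries each). The authors made polyA libraries with a stranded kit, sequenced paired-end reads, and per the submitters' processing notes used FastQC 0.11.5, Cutadapt 2.5, STAR 2.7.3a, featureCounts (Subread 1.6.2) and DESeq2 1.24.0 with GRCm38. They deposited raw counts per Ensembl gene and a normalized signal table, in which the authors divided the counts of a library by its size factor (0.895 to 1.08). Strand and multi-mapping settings of the counting are not given in the sources used here.

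Raw counts were tested with edgeR 4.0.16 (R 4.3.3): filterByExpr (minimum count 10, minimum total count 15), TMM, glmQLFit with robust estimation, two-sided glmQLFTest and Benjamini-Hochberg adjustment over 14469 genes, threshold 0.05. The study used DESeq2, which was an alternative here (1.42.0), as was limma-trend (limma 3.58.1) on log2(value + 1) of the normalized table. SE is the absolute log2 fold change over the square root of F. Normalized counts are the deposited values. Lengths, GC content and positions came from the GENCODE annotation of GRCm38 (M21). Ratios within a library were tested by exact permutation (scipy 1.17.1). The other alternatives were RLE size factors, library size alone, no filter, at least 10 counts in every library, a replicate block, GC content and length offsets by loess (span 0.5), alone or together with the block, omission of each library, a fold change above 1.2, a threshold of 0.01 and, chosen after the data were seen, both libraries that stood apart left out.

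The 10 genes and all gene lists were chosen with earlier results of these data known. Named are the 10 genes, Pdcd1 and Lyz2 as checks, fixed direct partners, and from each pathway list the genes past the threshold, up to 3 in each direction, except for an item that is not reported here. Other genes, such as marker genes, were named after their values were seen. On simulated counts for this comparison with 100 genes changed at each fold, edgeR recovered 80 of 100 at a fold of 1.5 and 96 of 100 at a fold of 2 among 14253 genes, with 9 false calls among 185. The simulated libraries shared a common mean profile apart from the changed genes, which were drawn from those above a minimum mean level. They had no dependence on GC content and no libraries that stood apart, so these rates may not hold for the real libraries. Replicate pairs within a genotype differed by more than counting noise (chi-square per gene 5.55 to 43.5). Protein sequences were not used here.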

Additional observations from a re-analysis of the deposited data

How the results depend on the processing

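The number of calls depended more on the setting than the direction of the changes did. Of all genes tested, 786 passed (44.5% of them higher), and 1517 with DESeq2, 1951 without a filter on low counts, 2590 with offsets for GC content and length (2613 with the replicate block added), 3757 without both libraries that stood apart, 283 at a threshold of 0.01 and 193 (32.6% higher) as a fold change above 1.2. Leaving out 1 library gave 222 to 3181, the highest without Pdcd1f/f replicate 1 and 370 or fewer without Pdcd1f/f replicate 2 or 3 or Pdcd1f/fLysMcre replicate 1 or 2. Of the 10 genes, 4 passed, and 7 without both libraries that stood apart (Axl, Mfge8 and Lrp1 added), 2 at a threshold of 0.01 (Mertk and Gas6) and 1 as a fold change above 1.2 (Mertk). Leaving out 1 library gave 1 to 7, with 7 without Pdcd1f/f replicate 1, 1 without Pdcd1f/f replicate 2 or Pdcd1f/fLysMcre replicate 1, and 2 without Pdcd1f/fLysMcre replicate 3. Of the 116 pathway genes, 14 passed, and 22 with DESeq2, 31 without a filter, 38 with the offsets (39 with the replicate block added), 52 without both libraries, 6 at a threshold of 0.01, 4 as a fold change above 1.2 and 3 to 39 with 1 library left out (39 without Pdcd1f/f replicate 1, 3 without Pdcd1f/f replicate 2 or Pdcd1f/fLysMcre replicate 1, 8 without Pdcd1f/f replicate 3 and 6 without Pdcd1f/fLysMcre replicate 2). The cause of these shifts was not tested.

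No source used here says whether the replicate numbers pair the libraries. Deviations of same-numbered libraries correlated at −0.01, −0.10 and 0.22, and those of differently numbered libraries at −0.25 to 0.24. With 3 libraries per genotype these values cannot decide whether the libraries were paired. With the replicate block alone, 1027 genes passed in all, 18 of the pathway genes and 5 of the 10 genes, with Lrp1 added (log2 fold change −0.42, adjusted p = 0.0438). Directions turned for Tyro3 without both libraries that stood apart (−0.18) and over the fits with 1 library left out (−0.040 to 0.49), and for Elmo1 with the offsets (−0.035, also with the block), with library size alone (−0.010) and with 1 library left out (−0.0011 to 0.0097). The log2 ratio of Mertk to Gas6 ranged from −0.10 to 0.12 and Mfge8 relative to the macrophage markers from −0.080 to 0.025 with 1 library left out. Without both libraries that stood apart the ratio of Mertk to Gas6 turned (0.055) and the other 5 ratios kept their direction (−0.43 for Mertk to Axl, −0.44 for Mertk to Tyro3, −0.30 for Gas6 to Pros1, −0.56 for Mfge8 to Itgb3 and 0.10 for Elmo1 to Dock1). Axl relative to the markers turned with Ptprc added to them (−0.017). The other 8 genes kept their direction in every fit. Tyro3, with 11 to 25 counts per library, is limited by depth, and it had no adjusted p with DESeq2.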
